A study of Gallus gallus with 30 samples.

Results

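The Notch GOF 6 h condition was made up of 6 of the 30 libraries of the series, 3 from otocysts electroporated with NICD1 and 3 from the untransfected otocysts of the same embryos. The members were chosen by sample label and embryo number alone, and no measured value was used. The otocyst is the epithelial vesicle from which the inner ear forms, and the series followed its transcripts after Notch activity was raised by electroporation or lowered in culture with a gamma-secretase inhibitor. Embryos were White Leghorn chickens (Gallus gallus), whose right otic placode was electroporated in ovo at embryonic day 2 with pCAB-NICD1-IRES-mRFP1. This plasmid carries the intracellular domain of chicken NOTCH1 together with the red fluorescent protein mRFP1. Both otocysts of embryos 12, 13 and 15 were dissected 6 h later, at embryonic day 2.5, cleaned of mesenchyme and each made into a library of its own. The untransfected left otocysts carried no plasmid but shared the egg, the surgery and the dissection with their partners.

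Several features of the condition limit it as a model. Embryos with the strongest and widest fluorescence were picked, yet the transfection was mosaic, so that a NICD1 library is a mixture of transfected and untransfected cells. Every NICD1 otocyst was a right one and every untransfected otocyst a left one, so side and treatment cannot be told apart. The mRFP1 control plasmid was available as 3 pairs after 24 h, and 3 further pairs had received NICD1 for 24 h. No mRFP1 library after 6 h was analysed here, so a response to the electroporation itself and a response to NICD1 cannot be told apart within the 6 libraries. In bulk RNA, fewer cells of a type and less RNA per cell cannot be told apart either.

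Notch is a receptor through which neighbouring cells signal to each other. Binding of a ligand such as DLL1 or JAG1 leads to cleavage of the receptor, and the released intracellular domain enters the nucleus, joins the DNA-binding protein RBPJ and switches on targets of the HES and HEY families. In the otocyst the pathway restrains the formation of neuroblasts and takes part in the specification of sensory patches, and an intracellular domain supplied from a plasmid acts as a receptor that is always on.

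Estimated counts per library ranged from 8749489 to 15045269, and between 20121 and 21693 of the 28756 listed transcripts had at least 1 count. The NICD1 library of embryo 12 was the shallowest in both respects. The otic markers SOX10, SOHO-1, LMX1A, DLX5 and OTOP1 were detected in all 6 libraries, SOX10 between 304 and 383 TPM in the NICD1 otocysts and between 348 and 408 TPM in the untransfected ones. TPM is a level scaled for transcript length and library size. Markers of mesenchyme were also present. All 16 listed mesenchyme transcripts were detected in every library, and their summed level was 972 to 1469 TPM in NICD1 otocysts and 901 to 1054 TPM in untransfected otocysts.

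Of the 21637 transcripts tested, 0 (0%) passed an adjusted p of 0.05 in the paired edgeR quasi-likelihood test, and transcripts past that threshold are the ones counted as called. At an unadjusted p below 0.05, edgeR counted 855, of which 407 were higher (1.88% of those tested) and 448 lower (2.07%) in NICD1 otocysts, while 5% of those tested would be 1082. Over all transcripts tested, 10036 log2 fold changes were positive and 11601 negative. The smallest adjusted p, 0.0747, was shared by SLC2A1 and a transcript with no paired gene name. The same comparison with DESeq2 called 125 of the 19539 transcripts to which it gave an adjusted p (0.64%), 71 higher (0.363%) and 54 lower (0.276%). DESeq2 shares given below for all transcripts are also over these 19539. With limma-voom 3 were called. Of the 125 DESeq2 calls, 99 had the same direction in all 3 embryos. Of all transcripts tested, 13% were higher and 14.7% lower in all 3. Among the 125 calls 97 had no gene name and 28 had one. The study's own table of this comparison lists 87 transcripts, all of them tested here, and 24 of the 125 calls stand in it. Those 24 come from the same libraries and are not independent evidence. When 1 embryo was left out DESeq2 called 72 (embryo 12), 186 (embryo 13) or 32 (embryo 15). A difference below is therefore given as a level in each embryo, with the edgeR estimate and with the answer of both tools. Gene names were at hand almost only for transcripts that the study had called changed in some comparison. The share over all transcripts, given beside the counts of a list, is thus not a neutral background for it.

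**Figure D1:**
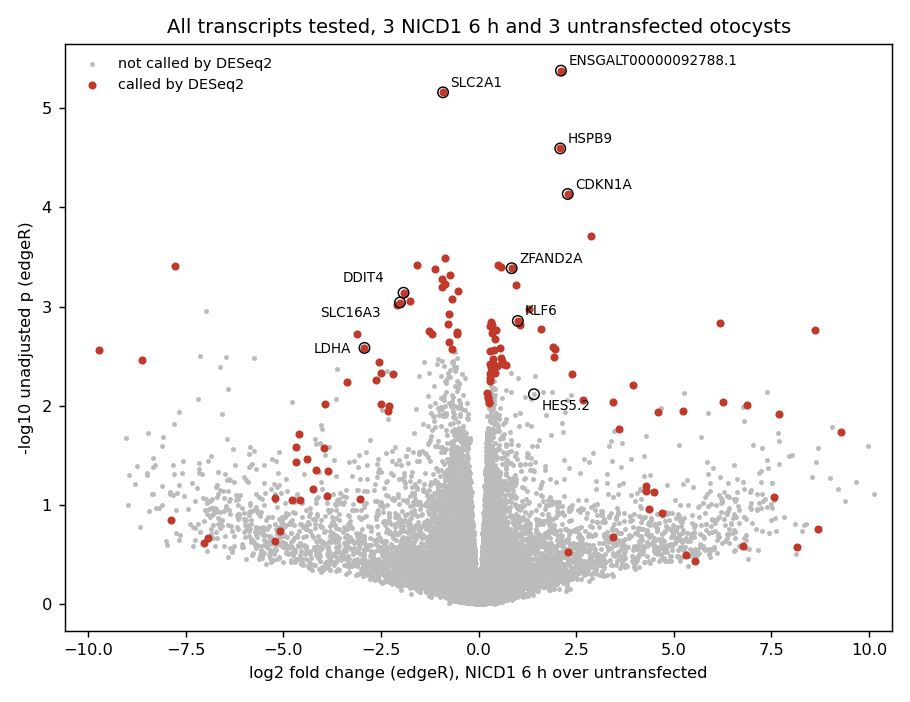
Log2 fold change of NICD1 6 h over untransfected otocysts on the x axis against −log10 of the unadjusted edgeR p on the y axis, 1 point for each of the 21637 transcripts tested. Red points were called by DESeq2 and circled points are named. None of them passed the edgeR threshold, the nearest being SLC2A1 and ENSGALT00000092788.1, both at an adjusted p of 0.0747.

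The first question was whether the plasmid left a trace in the NOTCH1 transcript and in the effectors of the pathway. The transcript paired with NOTCH1 (ENSGALT00000003754.7, 9865 bases) had 40.9, 56.3 and 53.6 TPM in the NICD1 otocysts of embryos 12, 13 and 15, against 47.8, 54.1 and 78.4 TPM in their untransfected otocysts. The groups overlapped (log2 fold change −0.20 ± 0.18, SE, edgeR adjusted p = 1). All 28756 entries of the tables used here are Ensembl chicken transcripts, so reads of the plasmid's coding sequence could not be told from those of the endogenous gene in them. The study itself reported a significant increase of NOTCH1 after NICD1 for 6 h and for 24 h. After electroporation of the mRFP1 control it reported a significant decrease, and it left NOTCH1 out of its further NICD1 analyses for that reason. It also quantified the intracellular and extracellular parts of NOTCH1 as separate sequences to tell the construct from the gene. It found the intracellular part increased, which it took as most likely the construct, and the extracellular part unchanged. Those values were not analysed here. Reads of the construct could also have been counted on an entry without a paired gene name. The levels above therefore do not answer whether the construct was expressed. The unnamed transcript ENSGALT00000092788.1, described below, was higher in each NICD1 otocyst, and whether it belongs to NOTCH1 was not tested.

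The HES5 genes encode repressors of neuronal differentiation and are well-known targets of Notch in the nervous system and the ear. HES5.2 (ENSGALT00000042752.3) had 98.1, 36.2 and 45.7 TPM in the NICD1 otocysts, against 16.7, 18.9 and 28.4 TPM in the untransfected ones. It was higher in 3 of 3 embryos, the groups did not overlap, and the NICD1 otocyst of embryo 12 stood far above the others. The log2 fold change was 1.42 ± 0.45 (SE), with an unadjusted p of 0.00765, an edgeR adjusted p of 1 and a DESeq2 adjusted p of 0.147. Without embryo 12 the log2 fold change was 0.81.

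HES5.1 (ENSGALT00000001715.5) was measured at 150, 54.6 and 81.5 TPM in NICD1 otocysts and at 37.0, 43.5 and 66.7 TPM in untransfected otocysts. It too was higher in each embryo, but the groups overlapped (0.91 ± 0.47, SE, edgeR adjusted p = 1). HES5.3 (ENSGALT00000035200.5) had 246, 129 and 127 TPM in NICD1 otocysts, against 95.6, 128 and 134 TPM in untransfected otocysts. Only embryo 12 set the 2 sides apart for HES5.3, and the log2 fold change of 0.47 became −0.04 without it. All 3 HES5 transcripts share reads with another transcript, so their separate levels depend on how kallisto split them. Embryo 12, in which the 3 were farthest apart, is also the embryo with the shallowest NICD1 library. The part of depth in this was not tested.

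Among the remaining components of the pathway, LFNG and HES4 were lower and HEY2 was higher without overlap between the groups, and none was called. HEY1, a target of the same class, had 22.0, 17.2 and 18.2 TPM in NICD1 otocysts and 24.3, 14.0 and 10.7 TPM in untransfected ones. LFNG, which encodes a glycosyltransferase that modifies the receptor, had 58.0, 109 and 104 TPM, against 123, 113 and 139 TPM in the untransfected otocysts. LFNG was lower in 3 of 3 embryos and the groups did not overlap, at −0.46 ± 0.31 on the log2 scale (SE, edgeR adjusted p = 1). HES4 was also lower in 3 of 3, with 41.4 to 57.6 TPM in NICD1 otocysts and 59.2 to 67.4 TPM in untransfected otocysts and a log2 fold change of −0.32 ± 0.20 (SE). The ligands DLL1 (−0.22), JAG1 (0.07) and JAG2 (−0.26), the receptor NOTCH2 (−0.16), the DNA-binding partner RBPJ (−0.02), the feedback inhibitor NRARP (0.00) and the effectors HES1 (−0.05) and HEY2 (0.41), given with their log2 fold changes, had unadjusted edgeR p-values of 0.252 or more. Over the 15 transcripts of the list, 7 had positive and 8 negative log2 fold changes, 4 were higher and 2 lower in 3 of 3 embryos (13% and 14.7% of all transcripts were), with a median of −0.02, which is also the median of all transcripts tested. By edgeR and by DESeq2 0 of the 15 were called, and HES5.2 alone had an unadjusted edgeR p below 0.05. After NICD1 for 24 h the median of the list was 0.37. There 9 were higher and 1 lower in 3 of 3 embryos (2068 and 2518 of all 21637 transcripts were). After mRFP1 for 24 h the median was −0.40, with 0 higher and 5 lower in 3 of 3 (3100 and 3434 of all 21637). The differences between these medians were not tested.

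**Figure D2:**
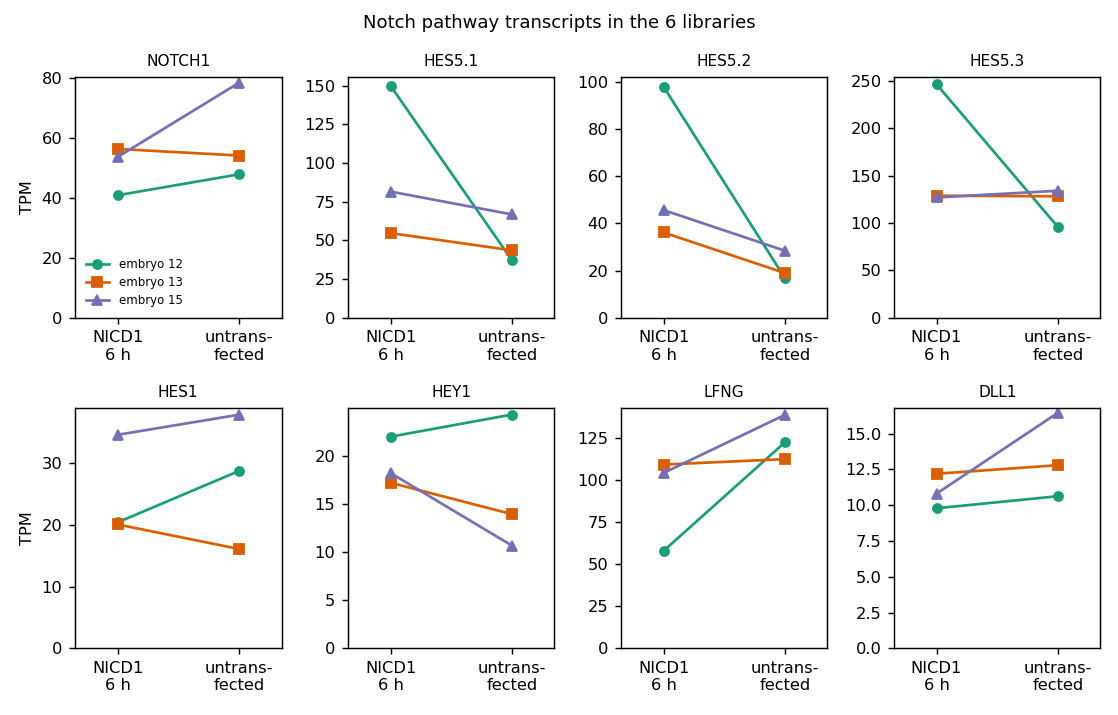
Level in TPM (y axis, from 0) of 8 Notch pathway transcripts in the NICD1 6 h otocyst (left) and the untransfected otocyst (right) of each embryo, with a line joining the otocysts of 1 embryo. HES5.2 was higher with NICD1 in all 3 embryos, and the 98.1 TPM of embryo 12 was the highest value, while HES5.3 was nearly equal on both sides in embryos 13 and 15.

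The clearest group difference was in genes of glycolysis and of the response to low oxygen. When oxygen is short, cells take up more glucose, turn pyruvate into lactate and export it, and in vertebrates the transcription factor HIF-1 raises many of the genes concerned. Of the 14 listed transcripts, 13 had a negative log2 fold change, and these 13 were lower in 3 of 3 embryos (14.7% of all transcripts were). The groups did not overlap for 12 of them (5.56% of all transcripts). An unadjusted edgeR p below 0.05 was found for 11 in the lower direction (2.07% of all), edgeR called 0 after adjustment, and DESeq2 called 7 (0.276% of all). The median log2 fold change was −0.85, against −0.02 over all transcripts tested. A total of 10 of the 14 stand in the study's own table of genes changed in these 6 libraries, so that the direction of the list is not independent evidence. The 4 members outside that table were CA9 (−0.65), CA12 (−0.36), PLOD1 (−0.31) and HIGD1C (0.43), given with their log2 fold changes, and neither edgeR nor DESeq2 called any of them.

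SLC2A1 (ENSGALT00000072050.2), the glucose transporter GLUT1, had 51.1, 53.0 and 56.8 TPM in the NICD1 otocysts of embryos 12, 13 and 15, against 83.2, 108 and 125 TPM in their untransfected otocysts. The NICD1 values lay close together and all below the lowest untransfected value. The log2 fold change was −0.91 ± 0.12 (SE), and the adjusted p was 0.0747 in edgeR, 1.69e-08 in DESeq2 and 0.0226 in limma-voom. Leaving out embryo 12 gave an edgeR adjusted p of 0.04998 at a log2 fold change of −1.08, leaving out embryo 13 gave 0.686, and leaving out embryo 15 gave 1. The call of this transcript thus depended on the tool and the embryos, and its direction did not.

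LDHA (ENSGALT00000039415.4), the lactate dehydrogenase subunit that makes lactate from pyruvate, had the largest difference of the list. It was measured at 23.2, 35.4 and 45.1 TPM in NICD1 otocysts and at 133, 345 and 379 TPM in untransfected otocysts. The groups did not overlap, and the log2 fold change of −2.92 ± 0.78 (SE) had an adjusted p of 1 by edgeR and of 0.0225 by DESeq2. SLC16A3 (ENSGALT00000004306.4), a transporter that exports lactate, had 14.6, 17.6 and 16.4 TPM in NICD1 otocysts, against 34.0, 81.5 and 106 TPM in untransfected otocysts. Its level was nearly even among the NICD1 otocysts and spread widely among the untransfected ones, without overlap, at a log2 fold change of −2.01 ± 0.47 (SE) and adjusted p-values of 0.894 by edgeR and 0.00209 by DESeq2. DDIT4 (ENSGALT00000080768.2), an inhibitor of the growth kinase mTORC1 that is induced by low oxygen and other stresses in mammals, had 23.3, 42.3 and 63.8 TPM in NICD1 otocysts and 138, 130 and 223 TPM in untransfected otocysts. The highest NICD1 value lay below the lowest untransfected one, at a log2 fold change of −1.92 ± 0.43 (SE) and adjusted p-values of 0.826 by edgeR and 0.00181 by DESeq2.

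**Figure D3:**
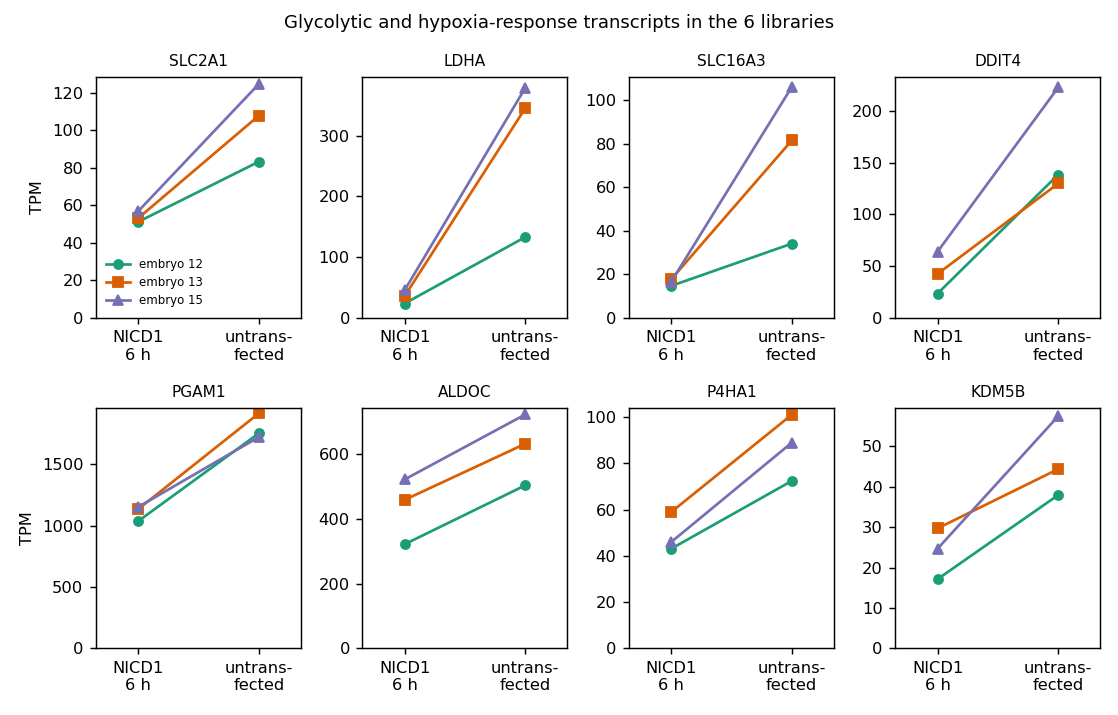
Level in TPM (y axis, from 0) of 8 transcripts of glycolysis and the low-oxygen response in the NICD1 6 h otocyst (left) and the untransfected otocyst (right) of each embryo, joined by lines. Every line rises to the right, and for SLC2A1 the NICD1 values of 51.1 to 56.8 TPM lie below the untransfected values of 83.2 to 125 TPM.

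The glycolytic enzymes PGAM1 and ALDOC were abundant and differed less than SLC2A1 and LDHA. PGAM1, a phosphoglycerate mutase, had 1037, 1135 and 1152 TPM in NICD1 otocysts, against 1753, 1915 and 1722 TPM in untransfected otocysts, a log2 fold change of −0.65 ± 0.22 (SE) with an edgeR adjusted p of 1. The aldolase ALDOC had 322, 459 and 522 TPM in NICD1 otocysts, against 504, 632 and 722 TPM in untransfected otocysts, so its groups overlapped although each embryo was lower with NICD1. PFKFB3, whose product makes an activator of glycolysis, had 7.82 to 9.81 TPM in NICD1 otocysts and 16.2 to 18.5 TPM in untransfected ones, without overlap, at a log2 fold change of −0.94 ± 0.40 (SE).

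Members with roles outside glycolysis went the same way. The collagen prolyl hydroxylase subunit P4HA1 had 43.1, 58.9 and 45.9 TPM in NICD1 otocysts, against 72.4, 101 and 88.9 TPM in untransfected otocysts (log2 fold change −0.78 ± 0.19, SE, DESeq2 adjusted p = 0.0247). KDM5B, a histone H3 lysine demethylase, had 17.1 to 29.7 TPM in NICD1 otocysts and 37.9 to 57.5 TPM in untransfected ones (−0.94 ± 0.20, DESeq2 adjusted p = 0.00441). The zinc-finger protein gene ZNF395 had 5.95 to 10.2 TPM in NICD1 otocysts and 15.3 to 19.1 TPM in untransfected ones (−1.12 ± 0.24, DESeq2 adjusted p = 0.00161). The carbonic anhydrase CA9, with 159 to 188 TPM in NICD1 otocysts and 252 to 301 TPM in untransfected ones, was also without overlap (−0.65 ± 0.25), but neither tool called it. The other carbonic anhydrase CA12 (−0.36 ± 0.46) and the lysyl hydroxylase PLOD1 (−0.31 ± 0.16) were lower in each embryo as well. The exception was HIGD1C, with 88.4 to 120 TPM in NICD1 otocysts and 68.6 to 84.6 TPM in untransfected otocysts (0.43 ± 0.14, edgeR adjusted p = 1). Summed over the 14, the level was 2015, 2319 and 2404 TPM in NICD1 otocysts and 3357, 4070 and 4056 TPM in untransfected otocysts. The number of DESeq2 calls in the list was 2 without embryo 12, 5 without embryo 13 and 3 without embryo 15. A total of 8 of the 14 transcripts, SLC2A1, LDHA and DDIT4 among them, share reads with another transcript.

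Whether the same genes differed in the other electroporated embryos of the series was asked next. Outside the series, the study also called LDHA, SLC16A3, P4HA1 and HIGD1C changed 24 h after electroporation of a dominant-negative β-catenin. Those libraries were not analysed here. In otocysts that had carried NICD1 for 24 h the median log2 fold change of the 14 was −0.15, and in otocysts that had carried mRFP1 for 24 h it was −0.21, against −0.85 after NICD1 for 6 h. Over all transcripts edgeR called 0 in each 24 h set, with 577 (2.67%) at an unadjusted p below 0.05 after NICD1 and 2042 (9.44%) after mRFP1. SLC2A1 had log2 fold changes of −0.91 ± 0.12 (NICD1 6 h), −0.05 ± 0.12 (NICD1 24 h) and −0.22 ± 0.12 (mRFP1 24 h, each with SE). The difference between the NICD1 responses at 6 h and 24 h was −0.86 ± 0.17 for SLC2A1, with an unadjusted p of 0.000291 and an adjusted p of 1 by edgeR and an adjusted p of 0.00227 by DESeq2. LDHA had −2.92 ± 0.78, −0.03 ± 0.75 and −0.22 ± 0.91 in the same order, and its difference between the NICD1 times of −2.90 ± 1.06 was called by neither tool. Negative values were found for 13 of the 14 after NICD1 for 24 h and for 12 after mRFP1 for 24 h. Over all 21637 transcripts 11446 and 11764 were negative in these 24 h sets. Of the 14, 5 and 3 were lower in 3 of 3 embryos (11.6% and 15.9% of all transcripts were), against 13 after NICD1 for 6 h (14.7%). Across all transcripts edgeR called 0 (0%) as different between the NICD1 responses at 6 h and 24 h, with 407 at an unadjusted p below 0.05, while DESeq2 called 30 and limma-voom 0.

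The levels after 24 h varied widely between embryos. In the mRFP1 set, embryo 4 had a summed level of 6618 TPM for the 14 transcripts in its mRFP1 otocyst and 9688 TPM in its untransfected otocyst, whereas the other 4 otocysts of that set lay between 2327 and 3409 TPM. In the NICD1 24 h set the sum was 2470 to 4078 TPM in NICD1 otocysts and 3151 to 5068 TPM in untransfected otocysts. The untransfected otocysts after 6 h, at 3357 to 4070 TPM, thus lay within the range of the untransfected otocysts of the other sets. The 2015 TPM of the NICD1 otocyst of embryo 12 was the lowest of the 18 in ovo libraries. The NICD1 otocysts of embryos 13 and 15, at 2319 and 2404 TPM, had sums like those of some 24 h otocysts. Among those were the untransfected otocyst of embryo 24 (2327 TPM) and the mRFP1 otocyst of embryo 23 (2339 TPM).

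**Figure D4:**
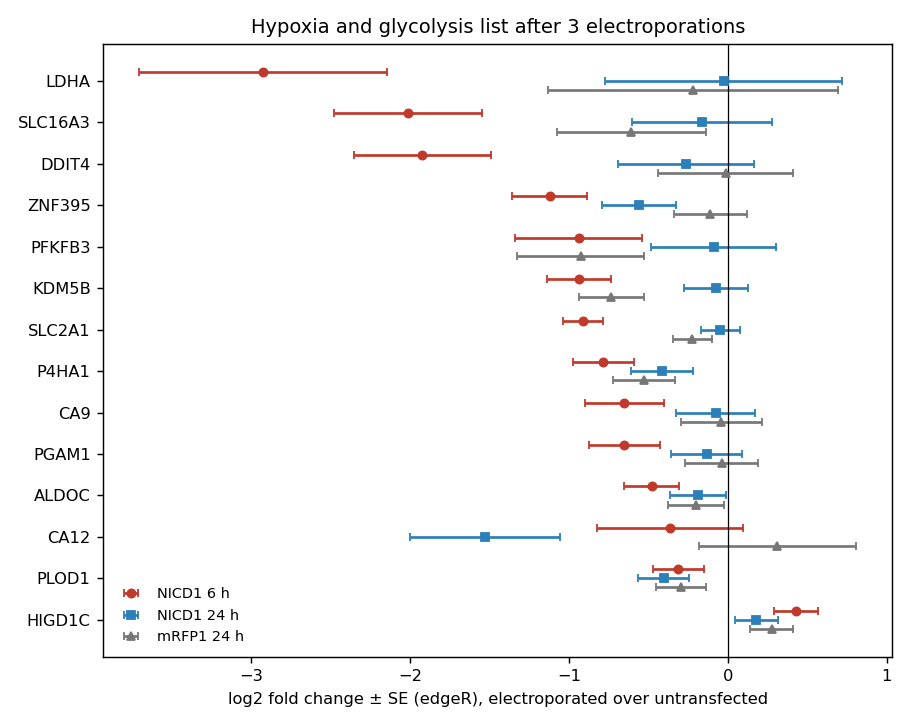
Log2 fold change (x axis, with SE bars, edgeR) of electroporated over untransfected otocysts for the 14 transcripts of the list, after NICD1 for 6 h (red circles), NICD1 for 24 h (blue squares) and mRFP1 for 24 h (grey triangles), 3 embryos each. The red points of LDHA, SLC16A3 and DDIT4 lie at −2.92, −2.01 and −1.92, and the other points of these 3 genes lie between −0.61 and −0.01.

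One transcript outside the lists stood apart. The pairing used here gave ENSGALT00000092788.1 (7845 bases) no gene name. It had 49.6, 34.7 and 95.4 TPM in NICD1 otocysts, against 12.0, 10.8 and 17.5 TPM in untransfected otocysts. All NICD1 values lay well above all untransfected ones, at a log2 fold change of 2.11 ± 0.27 (SE) with adjusted p-values of 0.0747 (edgeR), 7.24e-11 (DESeq2) and 0.00293 (limma-voom). After NICD1 for 24 h its log2 fold change was 2.28 ± 0.28 (SE), and after mRFP1 for 24 h it was −1.25 ± 0.28 (SE). It was higher in 6 of 6 NICD1 embryos and lower in 3 of 3 mRFP1 embryos. It was also the only transcript of the 21637 (0.00462%) called by edgeR as different between the NICD1 6 h and the mRFP1 24 h responses, by 3.36 ± 0.39 (SE) with an adjusted p of 0.0266. At an unadjusted p below 0.05 edgeR counted 474 transcripts (2.19%), and DESeq2 called 45. The call of ENSGALT00000092788.1 was lost when any of embryos 12, 13 or 15 was left out, with edgeR adjusted p-values of 0.299, 0.0606 and 0.295, and likewise when any of the mRFP1 embryos 4, 23 or 24 was. The other unnamed transcripts of lowest p were ENSGALT00000005203.6 (log2 fold change 0.50 ± 0.10), which was higher, and ENSGALT00000014777.6 (−0.85 ± 0.19) and ENSGALT00000018359.5 (−0.69 ± 0.16), which were lower with NICD1.

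Genes induced rapidly by growth factors or by stress had mostly higher levels in NICD1 otocysts. Of the 17 transcripts of this list 14 had a positive log2 fold change, 11 were higher in 3 of 3 embryos (13% of all transcripts were), 7 did so without overlap (3.91% of all), 9 had an unadjusted edgeR p below 0.05 in the higher direction (1.88% of all), and the median was 0.52. DESeq2 called 4 (0.363% of all were called as higher) and edgeR 0. As 8 of the 17 were in the study's own table of this comparison, the direction of this list is not independent evidence either. HSPB9, a small heat shock protein gene, had 239, 195 and 576 TPM in NICD1 otocysts, against 54.7, 75.7 and 93.6 TPM in untransfected otocysts. The groups were far apart and embryo 15 was the highest on both sides, at 2.09 ± 0.32 on the log2 scale (SE), with adjusted p-values of 0.183 by edgeR and 3.76e-08 by DESeq2. CDKN1A, which encodes the cell cycle inhibitor p21, had 11.7, 9.23 and 12.5 TPM in NICD1 otocysts, against 3.27, 0.921 and 3.97 TPM in untransfected otocysts. Its log2 fold change was 2.28 ± 0.40 (SE), with adjusted p-values of 0.396 by edgeR and 3.32e-06 by DESeq2.

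The other 2 of the DESeq2 calls were smaller in size. KLF6, a zinc-finger transcription factor, had 22.8 to 26.3 TPM in NICD1 otocysts and 10.1 to 15.1 TPM in untransfected ones (1.01 ± 0.25, DESeq2 adjusted p = 0.0109). ZFAND2A, a stress-induced gene whose product binds the proteasome, had 56.8 to 77.6 TPM in NICD1 otocysts and 27.5 to 48.4 TPM in untransfected ones (0.85 ± 0.18, DESeq2 adjusted p = 0.00259). After mRFP1 for 24 h the list had a median log2 fold change of 0.25, and after NICD1 for 24 h its median was 0.09. After mRFP1 for 24 h 8 of the 17 were higher in 3 of 3 embryos (3100 of all 21637 transcripts were). After NICD1 for 24 h 4 of the 17 were (2068 of all 21637). CDKN1A had a log2 fold change of 1.71 after mRFP1 for 24 h and of 0.28 after NICD1 for 24 h.

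Enzymes of sterol and lipid synthesis were on the higher side. All 10 transcripts of this list had positive log2 fold changes, with a median of 0.48, and 9 were higher in 3 of 3 embryos (13% of all transcripts were). The groups did not overlap for 5 (3.91% of all), and 5 had an unadjusted edgeR p below 0.05 (1.88% of all were higher at that threshold). DESeq2 called 3 (0.363% of all were called as higher) and edgeR 0, while 2 of the 10 were in the study's table of this comparison. MSMO1, an oxidase of cholesterol synthesis, had 149, 152 and 128 TPM in NICD1 otocysts, against 105, 120 and 81.8 TPM in untransfected otocysts. FDPS, which makes farnesyl diphosphate, had 234, 170 and 160 TPM in NICD1 otocysts, against 166, 147 and 85.6 TPM in untransfected otocysts. The log2 fold changes were 0.54 ± 0.15 for MSMO1 and 0.59 ± 0.16 for FDPS (SE), with DESeq2 adjusted p-values of 0.0247 and 0.0402 and edgeR adjusted p-values of 1. The lowest sum of the list, 512 TPM, belonged to the untransfected otocyst of embryo 15, and the other untransfected otocysts had 755 and 758 TPM against 816 to 909 TPM in NICD1 otocysts. Without embryo 15 DESeq2 called 0 of the 10.

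**Figure D5:**
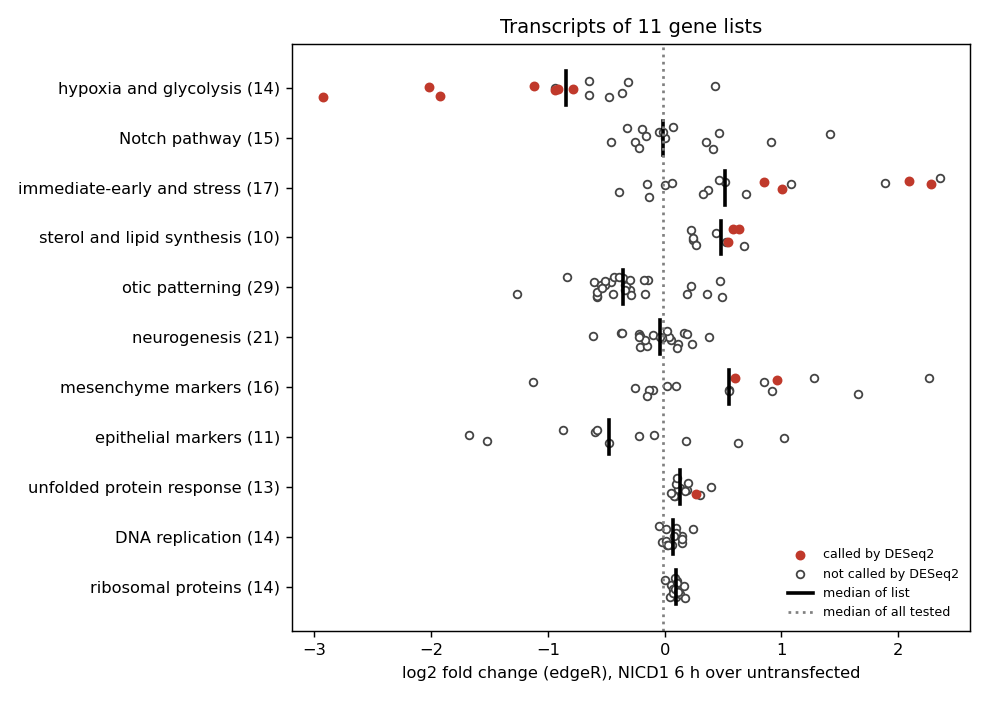
Log2 fold change (x axis, edgeR) of NICD1 6 h over untransfected otocysts for the transcripts of 11 lists, 1 point each, with the number tested in brackets. Black bars mark the median of a list, the dotted line marks the median of all transcripts tested (−0.02), and red points were called by DESeq2. The hypoxia and glycolysis list lies lowest, with a median of −0.85.

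Genes that pattern the otocyst tended to lower values, without a call by edgeR or DESeq2. In the study's own table of this comparison were 2 of them, SOHO-1 included. Of 29 transcripts 24 had a negative log2 fold change, and the median was −0.35. Among the 29, 13 were lower and 1 higher in 3 of 3 embryos (14.7% and 13% of all transcripts were). The groups did not overlap for 7 in the lower direction (5.56% of all). Only 1 had an unadjusted edgeR p below 0.05 in that direction (2.07% of all). That transcript was MEIS1, a homeobox gene, with 66.5 to 84.7 TPM in NICD1 otocysts and 103 to 119 TPM in untransfected otocysts (−0.51 ± 0.17, SE, edgeR adjusted p = 1). The homeobox gene SOHO-1 had 237, 237 and 187 TPM in NICD1 otocysts, against 350, 351 and 317 TPM in untransfected otocysts, without overlap (−0.58 ± 0.28, SE, edgeR adjusted p = 1). The median of the list was −0.26 after NICD1 for 24 h and −0.15 after mRFP1 for 24 h. Genes of neurogenesis lay around 0, with a median of −0.04 over 21 transcripts, 0 with an unadjusted edgeR p below 0.05 and 0 called by either tool. The members of lowest p, DPYSL2 (0.24 ± 0.13) and DPYSL4 (−0.62 ± 0.45, SE), had unadjusted edgeR p-values of 0.0855 and 0.197. NEUROD1, which is needed for the differentiation of otic neurons, was picked for its role after its values were seen. It had 40.6, 42.9 and 29.1 TPM in NICD1 otocysts, against 64.0, 22.9 and 46.5 TPM in untransfected otocysts, with no common direction. All 13 transcripts of the unfolded protein response had positive log2 fold changes, with a median of 0.13, and 5 were higher in 3 of 3 embryos (13% of all transcripts were), 0 of them without overlap. An unadjusted edgeR p below 0.05 was found for 3 of the 13 (1.88% of all). Transcripts of DNA replication (14, median 0.07, with PCNA at 0.24 and MCM6 at 0.15) and ribosomal proteins (14, median 0.09, with RPL31 at 0.17 and RPL34 at 0.17) had 0 with an unadjusted p below 0.05. Among these 3 lists DESeq2 called 1, SDF2L1 (0.27 ± 0.09, SE), a chaperone gene of the endoplasmic reticulum with 53.3 to 62.2 TPM in NICD1 otocysts and 38.7 to 54.8 TPM in untransfected ones.

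Markers of mesenchyme were more often higher and those of epithelium more often lower, with members of both lists going the other way. Of the 16 mesenchyme transcripts 11 had a positive and 5 a negative log2 fold change, from −1.12 to 2.26, with a median of 0.55. Among the 16, 9 were higher and 2 lower in 3 of 3 embryos (13% and 14.7% of all transcripts were). The groups did not overlap for 6 higher and 1 lower transcript (3.91% and 5.56% of all). An unadjusted edgeR p below 0.05 was found for 7 in the higher direction (1.88% of all) and 0 in the lower. As 6 of the 16 were in the study's table of this comparison, the direction of the list is not independent evidence. ACTA2, CDH11 and ZEB1, given next, are among those 6. ACTA2, smooth muscle actin, had 31.3, 35.8 and 94.5 TPM in NICD1 otocysts, against 15.4, 13.5 and 18.1 TPM in untransfected otocysts. The cadherin gene CDH11 had 33.1 to 37.8 TPM in NICD1 otocysts and 23.2 to 25.2 TPM in untransfected ones (0.60 ± 0.17, DESeq2 adjusted p = 0.0433), and ZEB1, a repressor of epithelial genes, had 5.80 to 8.75 TPM and 2.80 to 4.82 TPM (0.96 ± 0.21, DESeq2 adjusted p = 0.00515). The most abundant marker, SPARC, was at 325 to 430 TPM in NICD1 otocysts and 320 to 409 TPM in untransfected otocysts (0.10 ± 0.16). The highest sum of the mesenchyme list, 1469 TPM, was that of the NICD1 otocyst of embryo 15.

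Of the 11 epithelial transcripts 8 had a negative and 3 a positive log2 fold change, from −1.67 to 1.02, with a median of −0.48 and 0 called. Among the 11, 7 were lower and 3 higher in 3 of 3 embryos (14.7% and 13% of all transcripts were). The groups did not overlap for 1 lower and 1 higher transcript (5.56% and 3.91% of all). In the study's table of this comparison were 3 of the 11, CLDN3 and CDH1 among them, so their direction is not independent evidence. The lowest p was that of TFAP2C, a transcription factor of surface ectoderm, with 4.05, 12.1 and 7.44 TPM in NICD1 otocysts, against 19.8, 17.5 and 28.0 TPM in untransfected otocysts (−1.52 ± 0.63, SE, edgeR adjusted p = 1). CLDN3, a tight junction gene, had 28.7, 68.1 and 70.7 TPM in NICD1 otocysts, against 67.3, 107 and 129 TPM in untransfected otocysts, and CDH1 (E-cadherin) had 19.7, 43.3 and 44.8 TPM, against 37.7, 49.96 and 77.3 TPM. The most abundant member, the keratin KRT24, had 180 to 227 TPM in NICD1 otocysts and 181 to 195 TPM in untransfected ones (0.18 ± 0.21). The summed epithelial level was 591 to 706 TPM in NICD1 otocysts and 610.5 to 790 TPM in untransfected otocysts, and of the 2 UPK1B transcripts the rarer was at 0 in the NICD1 otocyst of embryo 12. The part of these markers in the differences above was not tested.

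Outside the lists, the named transcripts of lowest p included CXCL12, a chemokine, at 56.9, 65.2 and 106 TPM in NICD1 otocysts, against 40.8, 50.5 and 65.7 TPM in untransfected otocysts (0.56 ± 0.12, SE, DESeq2 adjusted p = 0.000632). CXCL12 was higher in each embryo although its groups overlapped. FBXL5, whose product senses iron in mammals, had 63.1 to 68.1 TPM in NICD1 otocysts and 45.3 to 55.4 TPM in untransfected ones, without overlap (0.44 ± 0.11, DESeq2 adjusted p = 0.0100). Among the lower transcripts NARF had 13.4, 22.5 and 17.8 TPM in NICD1 otocysts, against 51.2, 53.9 and 57.7 TPM in untransfected otocysts without overlap (−1.58 ± 0.33, SE, DESeq2 adjusted p = 0.00129). GYG1, glycogenin, on which glycogen chains are started, had 29.7 to 36.0 TPM in NICD1 otocysts and 60.2 to 75.1 TPM in untransfected ones (−0.94 ± 0.21, DESeq2 adjusted p = 0.00631). The amino acid transporter SLC43A2 (−0.72 ± 0.16), the DNA-binding protein gene TOX2 (−0.85 ± 0.17) and the nuclear receptor coactivator PNRC1 (−0.52 ± 0.12) were lower in 3 of 3 embryos and called by DESeq2, and none of these was called by edgeR. FBXL5, NARF, GYG1, SLC43A2 and PNRC1 stand in the study's table of this comparison, whereas CXCL12 and TOX2 do not. All were picked here for their low p, so these p-values are not independent evidence.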

How the data were processed

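Total RNA of single otocysts was amplified with SMART-Seq v4 and sequenced as paired reads, without strand. The authors demultiplexed with bcl2fastq and quantified with kallisto against build GRCg6a, in a version of kallisto that no source used here gives. Estimated counts were deposited without normalisation, and a read that fits several transcripts is shared between them. The deposited TPM values, scaled by the authors for length and depth, were used for levels only. Names come from the study's tables, which pair 853 of the 28756 transcripts with a symbol. Nearly all of these tables list transcripts that the study called changed in a Notch or Wnt comparison. The table of RefSeq genes at hand (GRCg7b) holds no Ensembl identifiers. The pairs of 12 Notch components were found by equality of all 30 TPM values.

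Estimated counts were rounded. Transcripts were filtered with filterByExpr (minimum count 10), scaled by TMM and fitted over all 30 libraries in edgeR 4.0.16 (R 4.3.3) with a term per embryo and 5 treatment terms (10 residual degrees of freedom). The Benjamini-Hochberg adjustment covered all 21637 transcripts tested, except in DESeq2, which gave an adjusted p to 19539 of them for NICD1 6 h. DESeq2 1.42.0 and limma-voom (limma 3.58.1) used the same design. SE is the log2 fold change over the square root of F. A direction per embryo compares TMM-scaled CPM with 0.5 added, whereas overlap compares TPM. Otocysts of 1 embryo deviated together from their group means (r = 0.118, 0.111 and 0.128 for embryos 12, 13 and 15), and the pairing follows from the shared embryo. Libraries of 1 group differed beyond sampling noise (chi-square per degree of freedom 14.8 to 25.7). Alternatives were another scaling, other filters, fits of fewer libraries, no pairing, other tools, a length correction and leaving out each embryo. The transcripts named are the paired members of the Notch and hypoxia lists, the 10 of lowest p in each direction with a symbol, a mean of at least 5 TPM and 1 direction in 3 embryos, 2 without a symbol in each direction, and of each other list the 2 to 4 of lowest p and, for marker lists, the most abundant. Lists, members and tests were chosen with earlier results of these data known.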

Additional observations from a re-analysis of the deposited data

Results flagged for a closer look

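ENSGALT00000092788.1 stood out because its response to NICD1 for 6 h differed from its response to mRFP1 for 24 h by 3.36 on the log2 scale (SE 0.39, edgeR adjusted p = 0.0266). It was higher in 3 of 3 embryos after NICD1 for 6 h and lower in 3 of 3 embryos after mRFP1 for 24 h. After NICD1 for 24 h, the same time as mRFP1, its log2 fold change was 2.28 ± 0.28 (SE), against −1.25 ± 0.28 (SE) after mRFP1 for 24 h, a difference that was not tested. The NICD1 responses at 6 h and 24 h differed by −0.17 ± 0.38 (SE, edgeR adjusted p = 1). The transcript shares reads with another transcript.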

How the results depend on the processing

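The number of transcripts called for NICD1 6 h was 0 with another scaling, with no filter, with a minimum count of 50, in fits of 18 or 6 libraries and with no replicate block, that is without the pairing by embryo (542 at an unadjusted p below 0.05, against 855 with it). It was 125 with DESeq2 (103 on the 6 libraries alone), 3 with limma-voom, 1 after removal of a length trend, and 0 to 1 when 1 embryo was left out, the 1 being SLC2A1 without embryo 12. With DESeq2 it was 72, 186 and 32 without embryos 12, 13 and 15. For the difference from NICD1 24 h the count was 1 with no replicate block and 30 with DESeq2 (33, 59 and 21 without embryos 12, 13 and 15), and 0 in the other fits. For the difference from mRFP1 24 h it was 1, or 45 with DESeq2 (47, 55 and 25 without embryos 12, 13 and 15), and 0 with 18 libraries, with no replicate block and with any of embryos 12, 13, 15, 4, 23 or 24 left out. Fits that left out an embryo with DESeq2, or a 24 h embryo, were chosen after seeing the data. Of 49 log2 values of named transcripts 44 kept their direction in every alternative. The other 5 turned in at least 1, and HES5.3, at 0.47 with all embryos, turned only without embryo 12. With 1 embryo left out HES1 ranged from −0.1858 to 0.0903 (0.1005 by DESeq2 without embryo 12), HES5.3 from −0.0363 to 0.7637 (−0.0248 by DESeq2 without embryo 12), NOTCH2 from −0.3090 to 0.1532 (0.1646 by DESeq2 without embryo 12), NRARP from −0.2286 to 0.4514 (−0.2010 and −0.2183 by DESeq2 without embryos 12 and 13) and RBPJ from −0.1628 to 0.0728 (0.0851 and 0.0886 by DESeq2 without embryos 12 and 15). NOTCH2 was 0.0196 after removal of the length trend. RBPJ was 0.0045 with another scaling, 0.0056 by DESeq2, 0.0203 after removal of the length trend and 0.0077 by DESeq2 on the 6 libraries alone. The causes were not tested. With 3 pairs an exact sign-flip permutation test of 1 transcript cannot give a two-sided p below 0.25.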
